A study of Mus musculus with 8 samples.

Results

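The genes described here make, sense, take up and export cholesterol: 16 enzymes of sterol synthesis, 5 genes of sterol sensing and intracellular sterol transport, 6 genes of the liver X receptor (LXR) and efflux branch, and 2 genes of uptake and esterification. These 29 genes were chosen by their known roles and found by gene name on the array, where they have 39 of the 55681 non-control probes. One probe stood for each gene, so they make up 29 of the 20138 genes tested. The arrays measured total RNA of whole intestinal fragments of 2 cm from untreated 129SV mouse pups at 3 days of age. Pups were wild type (WT) or lacked, by gene targeting, claudin-7 (KO), which belongs to the tight junction proteins of epithelia. The 4 groups were KO large intestine, WT large intestine, KO small intestine and WT small intestine, with 2 arrays each, numbered 2 and 3. The labels mention neither an inducible nor a tissue-limited knockout, and they leave unsaid whether a small and a large intestine sample share a pup.

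Cells make cholesterol from acetyl-CoA through mevalonate, squalene and lanosterol. When sterols in the endoplasmic reticulum are low, the escort protein SCAP carries the transcription factor SREBP2, the product of Srebf2, to the Golgi for activation, and INSIG proteins hold it back when sterols are plentiful. In the small intestine NPC1L1 takes cholesterol up from the lumen, SOAT2 esterifies it for lipoproteins, and the paired transporter ABCG5 and ABCG8 returns sterol to the lumen under control of LXR.

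Levels are given as log2 of the processed signal relative to the array's 75th percentile, so that a level of 0 equals that percentile, and a probe's level is compared only with itself on other arrays. Differences are log2 fold changes ± standard error in limma, with n = 2 arrays per group. A gene passed when its p, adjusted by the Benjamini-Hochberg method over all 20138 genes, was under 0.05. With so few arrays precision is low, and the median 95% interval of a member within a segment reached 0.75 to either side on the log2 scale. P-values measure the spread between these samples, which may be technical. All 29 genes were measured, 28 of them well above background on all 8 arrays.

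The array probe for the targeted gene Cldn7 read 2.08 and 2.16 on the KO large intestine arrays, against 5.70 and 5.56 in WT large intestine. It read 2.21 and 0.94 in KO small intestine, against 5.89 and 5.93 in WT small intestine. All 12 enterocyte markers, among them the lactase gene Lct, were lower in WT large than in WT small intestine, with a median log2 fold change of -3.62. Some arrays carried transcripts of other tissues or another sex. The summed level of 11 liver markers was 7.81 on KO large 2, against 0.81 to 2.57 on the other 7 arrays. Pancreas markers stood a median of 2.71 above their own mean on WT large 2 and 2.49 above it on KO large 3. Their summed level did not single out these arrays. It was 4.60 on WT large 2, 4.35 on KO large 3, 4.37 and 4.82 in WT small intestine, and 1.66 to 3.18 on the remaining arrays. Xist, the RNA that coats the inactive X, stood at -2.42 and -2.43 on the arrays KO small 3 and KO large 3 but -7.46 to -6.25 on the other 6. All arrays share 1 slide, on which the number is the row and the group is the column, so that column and group cannot be told apart.

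**Figure D1:**
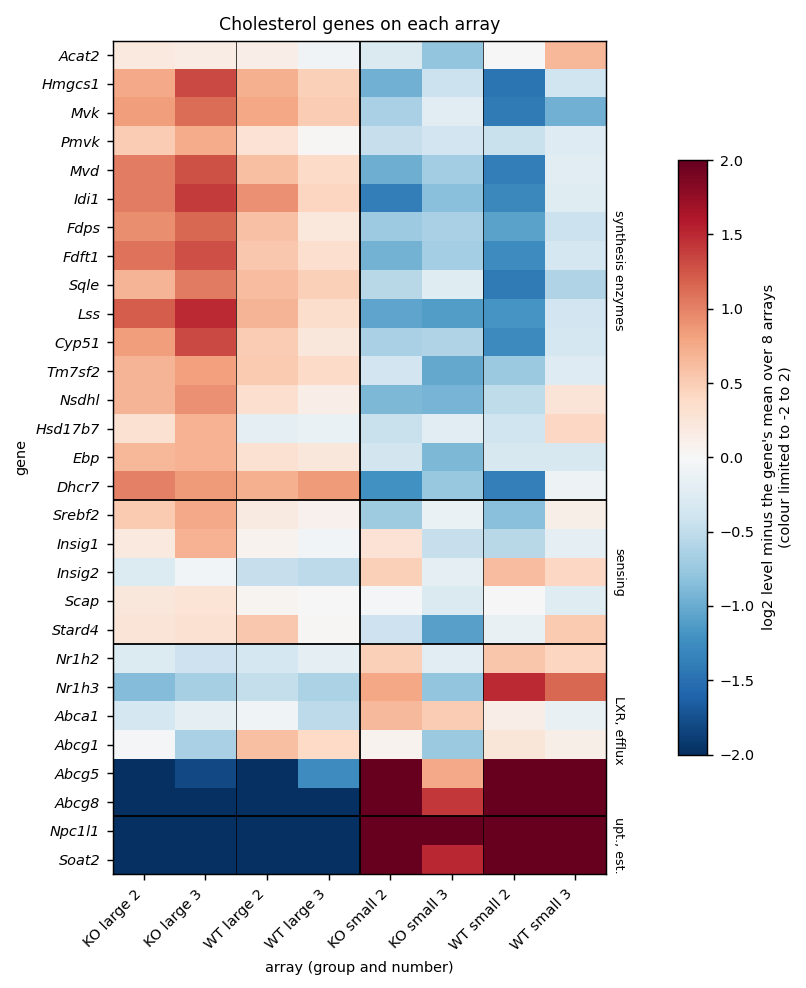
Level of each of the 29 genes on each of the 8 arrays, in log2 relative to the gene's own mean over the arrays, with colour limited to -2 and 2 and genes grouped by role. Npc1l1, Soat2, Abcg5 and Abcg8 are low on the 4 large intestine arrays, and most synthesis enzymes are high there.

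Between segments of the WT intestine, the cholesterol genes divided by role. The uptake gene Npc1l1, the esterification gene Soat2 and the luminal efflux gene Abcg5 were lower in WT large intestine, by 18.7-fold to 86.2-fold. Abcg8 was lower as well, with a signal near background there. Of the 16 synthesis enzymes, 8 passed as higher in WT large intestine, by 2.21-fold to 3.54-fold. In all, 14 of the 29 genes passed (8 higher and 6 lower), against 19.8% of all genes tested (9.93% higher and 9.92% lower). At an unadjusted p under 0.05 there were 20, against 36.2% of all genes. Without overlap between the groups, 15 of the 29 lay above and 7 below, against 34.3% and 35% of all genes. In whole tissue, fewer cells of a type and less RNA per cell cannot be told apart.

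Npc1l1 encodes the sterol importer of the enterocyte brush border, and its probe lies at chr11:6111461-6111520 (mouse build mm9, minus strand). It read -2.94 and -2.67 in WT large intestine, against 3.78 and 3.47 in WT small intestine. Both WT large arrays lay far below both WT small arrays, a log2 fold change of -6.43 ± 0.59 (86.2-fold lower, limma adjusted p = 0.00148). Soat2, the acyltransferase that makes cholesteryl esters (probe at chr15:101993657-101993716, mm9, plus strand), read -0.93 and -0.82 in WT large intestine, against 4.67 and 4.22 in WT small intestine. The groups did not overlap, and Soat2 was 40.1-fold lower in WT large intestine (-5.33 ± 0.57, limma adjusted p = 0.00235).

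The half-transporters that return sterol to the lumen followed the same order. Abcg5 (probe at chr17:85057593-85057652, mm9, minus strand) read 0.00 and 0.92 in WT large intestine, against 4.84 and 4.54 in WT small intestine. This is a log2 fold change of -4.23 ± 0.68 (18.7-fold lower, limma adjusted p = 0.00909). Its partner Abcg8 (probe at chr17:85098745-85098804, mm9, plus strand) read -7.91 and -6.77 in WT large intestine, against -0.53 and -0.87 in WT small intestine. The probe was well above background on only 1 of the 2 WT large arrays, so that the size of the difference depends on the background correction. The log2 fold change was -6.64 ± 0.79 as measured (limma adjusted p = 0.00336), -5.44 on the deposited normalized values (adjusted p = 0.00143) and -4.39 with normexp correction (adjusted p = 0.00175). In KO pups it was not well above background on either large intestine array, and KO small intestine was at least 29.9-fold higher than KO large intestine, taking the lowest signal well above background as the floor where the dim probe read below it. The knockouts showed the same arrangement for the other 3 genes, with levels of -5.50 and -4.27 (Npc1l1), -1.14 and -1.22 (Soat2) and -0.90 and 0.38 (Abcg5) in KO large intestine. Their levels in KO small intestine were 3.94 and 2.29 (Npc1l1), 5.05 and 3.13 (Soat2) and 4.73 and 2.95 (Abcg5).

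Abcg5 and Abcg8 are transcribed away from each other, and their RefSeq start sites lie 110 bases apart on chromosome 17 (GRCm38.p6). The 250 bases before the Abcg8 start are shown on the plus strand (chr17:84682871-84683120), because they hold the Abcg5 start and the stretch between the starts. Capitals mark CCAAT boxes, the motif of the factor NF-Y, read as CCAAT on the printed strand or as ATTGG where the match is on the opposite strand.

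Abcg8: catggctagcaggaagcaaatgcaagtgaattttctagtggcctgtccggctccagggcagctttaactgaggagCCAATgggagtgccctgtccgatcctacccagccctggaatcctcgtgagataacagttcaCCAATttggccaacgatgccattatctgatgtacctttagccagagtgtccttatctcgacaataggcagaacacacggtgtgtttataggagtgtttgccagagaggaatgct

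Nr1h3 encodes LXR alpha, the receptor for oxysterols that switches on efflux genes. It read 0.97 and 0.82 in WT large intestine, against 2.94 and 2.58 in WT small intestine. It was 3.65-fold lower in WT large intestine (-1.87 ± 0.47, limma adjusted p = 0.0378), and the groups did not overlap. Nr1h2, the gene of LXR beta, differed by -0.77 ± 0.26 and did not pass (adjusted p = 0.0847). The sterol efflux pumps Abca1, which loads cholesterol onto apolipoprotein A-I, and Abcg1, which loads it onto high-density lipoprotein, did not pass either, at -0.29 ± 0.23 and 0.32 ± 0.33. Abca1, Abcg1 and Nr1h2 were well above background on all 8 arrays in both segments.

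The summed enterocyte marker level moved in the same direction as these genes. It was 5.42 and 5.53 in WT large intestine, against 9.71 and 9.43 in WT small intestine (log2), and 5.14 and 5.50 in KO large intestine, against 9.72 and 8.75 in KO small intestine. Its part in the result was not tested.

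**Figure D2:**
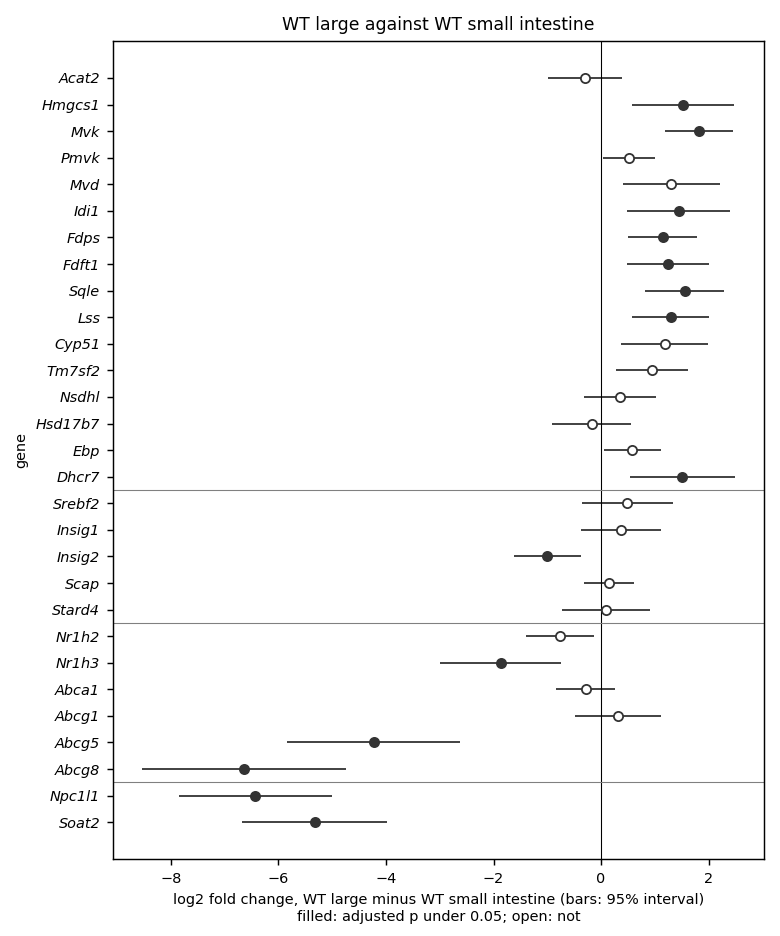
Log2 fold change of WT large over WT small intestine for each gene, by role, with bars for the 95% interval and filled points for genes that passed. Synthesis enzymes lie mostly right of 0, and Npc1l1, Soat2, Abcg5 and Abcg8 lie between -6.64 and -4.23, with Abcg8 in WT large intestine near background.

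The synthesis enzymes ran the other way. Of the 16, 14 had a log2 fold change above 0 in WT large over WT small intestine. In 13 both WT large arrays lay above both WT small arrays, a pattern that 34.3% of all genes showed. The enzymes' median was 1.21, against 0.00 over all genes.

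In the mevalonate section, Hmgcs1, which makes HMG-CoA, read 4.95 and 4.71 in WT large intestine, against 2.78 and 3.83 in WT small intestine. The groups did not overlap, and the difference was 1.52 ± 0.40 (2.87-fold, limma adjusted p = 0.0416). Mvk, mevalonate kinase (probe at chr5:114910540-114910599, mm9, plus strand), read 4.08 and 3.82 in WT large intestine, against 1.90 and 2.36 in WT small intestine. Both WT large arrays were higher by more than the spread between replicates, at 1.82 ± 0.27 (3.54-fold, limma adjusted p = 0.00667). Idi1, the isomerase that interconverts the isoprenoid building blocks, read 3.67 and 3.19 in WT large intestine, against 1.46 and 2.51 in WT small intestine. It passed narrowly, at 1.44 ± 0.40 (2.72-fold, limma adjusted p = 0.0482). Fdps, the farnesyl diphosphate synthase, read 4.15 and 3.77 in WT large intestine, against 2.50 and 3.13 in WT small intestine. The groups did not overlap (1.14 ± 0.27, 2.21-fold, limma adjusted p = 0.0313). Mvd, the decarboxylase of the section, fell just short of the threshold at 1.30 ± 0.38 (adjusted p = 0.0545), Pmvk, which adds the second phosphate, gave 0.51 ± 0.20 (adjusted p = 0.120), and Acat2, which joins acetyl-CoA units at the start, gave -0.30 ± 0.29.

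In the squalene section, Fdft1, squalene synthase, read 2.37 and 2.17 in WT large intestine, against 0.58 and 1.49 in WT small intestine (1.24 ± 0.32, 2.36-fold, limma adjusted p = 0.0398). WT large intestine was higher on both arrays, but a second, dimmer Fdft1 probe gave -0.16. Sqle, squalene epoxidase and the first oxygen-requiring step (probe at chr15:59162688-59162747, mm9, plus strand), read 3.92 and 3.78 in WT large intestine, against 1.89 and 2.70 in WT small intestine. It was 2.93-fold higher in WT large intestine (1.55 ± 0.31, limma adjusted p = 0.0184), without overlap. Lss, which folds the epoxide into lanosterol, read 0.18 and -0.14 in WT large intestine, against -1.67 and -0.88 in WT small intestine. It was 2.45-fold higher (1.29 ± 0.30, limma adjusted p = 0.0293), again without overlap.

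Among the enzymes after lanosterol only Dhcr7, the last reductase before cholesterol, passed. It read 0.86 and 1.01 in WT large intestine, against -1.21 and 0.05 in WT small intestine (1.51 ± 0.41, 2.85-fold, limma adjusted p = 0.0446). WT large intestine was higher on both arrays, and the WT small arrays lay far apart. The demethylase Cyp51 (1.18 ± 0.34, adjusted p = 0.0527) and the reductase Tm7sf2 (0.95 ± 0.28, adjusted p = 0.0570) lay near the threshold. The isomerase Ebp, the dehydrogenase Nsdhl and the reductase Hsd17b7 gave 0.58 ± 0.23, 0.35 ± 0.28 and -0.17 ± 0.31 and did not pass. Cyp51 read 0.44 and 0.17 in WT large intestine, against -1.33 and -0.42 in WT small intestine, and Tm7sf2 read 2.34 and 2.19 in WT large intestine, against 1.07 and 1.54 in WT small intestine. Neither overlapped between the segments. Hsd17b7 did overlap, at 0.12 and 0.17 in WT large intestine, against -0.09 and 0.73 in WT small intestine.

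The same order of the segments was present in the knockouts, for which no test is given. All 16 enzymes had both KO large arrays above both KO small arrays, with differences of 0.72 to 2.44 on the log2 scale and a median of 1.71. Of all genes, 30.6% lay above without overlap in this way. Hmgcs1 read 4.99 and 5.55 in KO large intestine, against 3.28 and 3.80 in KO small intestine. Lss, which read 0.71 and 0.99 in KO large intestine, against -1.55 and -1.62 in KO small intestine, likewise showed no overlap.

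RefSeq promoter windows (GRCm38.p6, 250 bases before to 50 after the start) were found for 23 of the 29 genes, 31 windows in all, and were searched on both strands. No window was found for Fdps, Fdft1, Sqle, Stard4, Abcg1 and Soat2. A search for a fixed pattern in such a window cannot show that a gene lacks the element. The core of the sterol regulatory element, searched as TCACNCCAC, was in 1 of the 31 windows, that of Hmgcs1, and in 1.24% of the windows of all genes. CCAAT was in 18 of the 31 windows (58.1%), against 37.4% of all windows. The LXR motif DR4, a direct repeat of AGGTCA spaced by any 4 bases, was in none of the 31, against 0.0152% of all windows. No match overlapped another in the windows shown. The 250 bases before the start are shown for Hmgcs1 (chr13:119690101-119690350, plus strand), because it holds the only TCACNCCAC match found, at position -137 from the start. They are also shown for Mvk (chr5:114444019-114444268, plus strand), because this enzyme differed most between segments and its window holds 5 CCAAT boxes. Capitals mark TCACNCCAC and CCAAT matches on either strand.

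Hmgcs1: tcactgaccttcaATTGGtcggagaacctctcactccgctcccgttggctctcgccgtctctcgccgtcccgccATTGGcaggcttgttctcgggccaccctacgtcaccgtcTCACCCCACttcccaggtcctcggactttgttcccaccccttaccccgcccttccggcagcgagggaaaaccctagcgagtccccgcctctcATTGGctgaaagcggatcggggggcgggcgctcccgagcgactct
Mvk: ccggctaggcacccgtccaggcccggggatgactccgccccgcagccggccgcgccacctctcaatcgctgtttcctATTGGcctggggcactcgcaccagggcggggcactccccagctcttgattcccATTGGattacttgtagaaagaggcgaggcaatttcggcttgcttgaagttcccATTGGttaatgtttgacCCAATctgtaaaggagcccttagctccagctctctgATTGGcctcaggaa

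Of the sterol-sensing genes, Insig2, which retains SCAP in the endoplasmic reticulum, was the only one of 5 to pass. It read 2.32 and 2.26 in WT large intestine, against 3.39 and 3.19 in WT small intestine. It was 2.00-fold lower in WT large intestine (-1.003 ± 0.26, limma adjusted p = 0.0412), without overlap. Insig1, its SREBP-inducible relative, gave 0.37 ± 0.32, Srebf2 0.49 ± 0.35, Scap 0.14 ± 0.20 and Stard4, a carrier of free sterol between membranes, 0.09 ± 0.34, and none of these passed. Srebf2 read -0.05 and -0.16 in WT large intestine, against -1.07 and -0.12 in WT small intestine, so that the groups overlapped, and its second probe gave -0.11. Scap was the steadiest of the 5, between 2.51 and 3.07 on all 8 arrays.

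**Figure D3:**
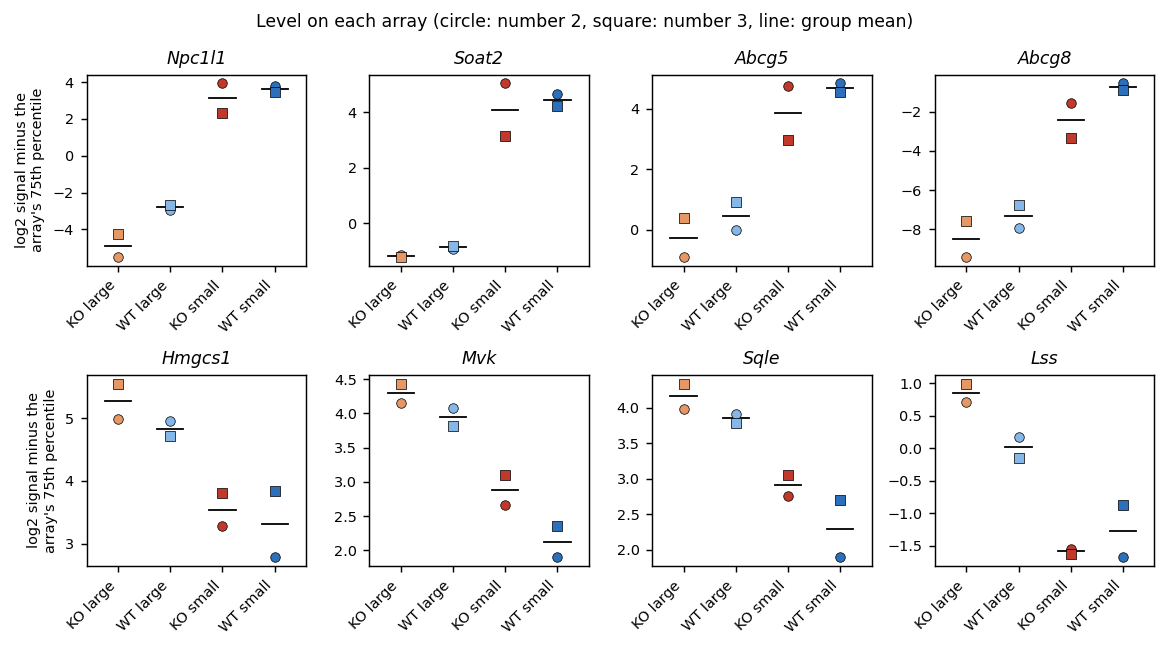
Level of 4 transport genes (Npc1l1, Soat2, Abcg5, Abcg8) and 4 synthesis enzymes (Hmgcs1, Mvk, Sqle, Lss) on each array, in log2 relative to the array's 75th percentile; circles are number 2, squares number 3, lines are group means, and each panel has its own axis. KO and WT of a segment lie closer together than the segments do for the transport genes.

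The size of the synthesis difference between segments varied with the WT small intestine arrays, which differed between themselves. WT small 3 lay above WT small 2 for 15 of the 16 enzymes, with a median difference of 0.80. Within number 2 the enzymes were higher in WT large intestine by a median of 1.79 (16 of 16), and within number 3 by a median of 0.64 (13 of 16). Leaving out an array changed the number of the 29 genes that passed. It was 5 without WT small 2, 3 without WT large 2, 5 without WT large 3, and 8 without either KO large array, which enter through the shared spread. Npc1l1, Soat2 and Abcg8 passed without any one array, and Abcg5 and Mvk missed the threshold only without WT large 2 (adjusted p = 0.0689 and 0.0600).

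KO large intestine was compared with WT large intestine next. None of the 29 genes passed, against 0.308% of all genes tested, and the lowest adjusted p of a member was 0.247 in limma. At an unadjusted p under 0.05 there were 4, against 13.3% of all genes. The 16 synthesis enzymes all had fold changes above 0, between 0.14 and 0.84 on the log2 scale with a median of 0.50, against a median of -0.00 over all genes. In 15 of the 16, both KO large arrays lay above both WT large arrays, a pattern that 27.6% of all genes showed. The exception was Dhcr7, at 1.15 and 1.003 in KO large intestine, against 0.86 and 1.01 in WT large intestine.

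Lss had the smallest p among the enzymes. It read 0.71 and 0.99 in KO large intestine, against 0.18 and -0.14 in WT large intestine (0.84 ± 0.30, 95% interval 0.12 to 1.55, limma adjusted p = 0.324). Fdps read 4.50 and 4.71 in KO large intestine, against 4.15 and 3.77 in WT large intestine (0.65 ± 0.27, limma adjusted p = 0.376). Both KO arrays were above both WT arrays for Lss and Fdps, by amounts that did not pass over all genes. Fdft1 read 2.93 and 3.13 in KO large intestine, against 2.37 and 2.17 in WT large intestine (0.76 ± 0.32, limma adjusted p = 0.377), also without overlap. The other enzymes gave 0.71 (Cyp51), 0.67 (Hsd17b7), 0.66 (Mvd), 0.57 (Nsdhl), 0.54 (Idi1), 0.46 (Pmvk), 0.44 (Hmgcs1), 0.42 (Ebp), 0.34 (Mvk), 0.31 (Sqle), 0.30 (Tm7sf2), 0.15 (Dhcr7) and 0.14 (Acat2) on the log2 scale.

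Against the WT large mean, the median difference of the 16 enzymes was 0.38 on KO large 2 alone and 0.70 on KO large 3 alone. These are the same arrays as above, so the 2 medians are not further evidence. Within number 2 the median was 0.32 and within number 3 it was 0.81. All 16 stayed above 0 in each of the 20 alternative settings, with medians between 0.32 and 0.70. Epithelial markers moved with them: 12 of 12 had fold changes above 0 in KO large intestine (median 0.36, 0 passed). Of these, 10 lay above without overlap, against 27.6% of all genes. The summed epithelial level was 9.53 and 9.74 in KO large intestine, against 9.35 and 9.34 in WT large intestine. Of 10 proliferation markers, 9 were above 0 (median 0.30, 0 passed), with summed levels of 6.40 and 6.48 in KO large intestine, against 6.32 and 6.12 in WT large intestine. Of 12 macrophage markers, 11 were above 0 as well (median 0.37). Medians were below 0 for smooth muscle (-0.39, 10 of 12 below 0) and neuron and glia markers (-0.22, 9 of 12 below 0). They were also below 0 for T cell (-0.35, 9 of 10 below 0) and enterocyte markers (-0.10, 6 of 12 below 0). The part of all these markers in the result was not tested. The summed liver level was 7.81 on KO large 2 and 1.30 on KO large 3, and the part of liver transcripts in the result was not tested.

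**Figure D4:**
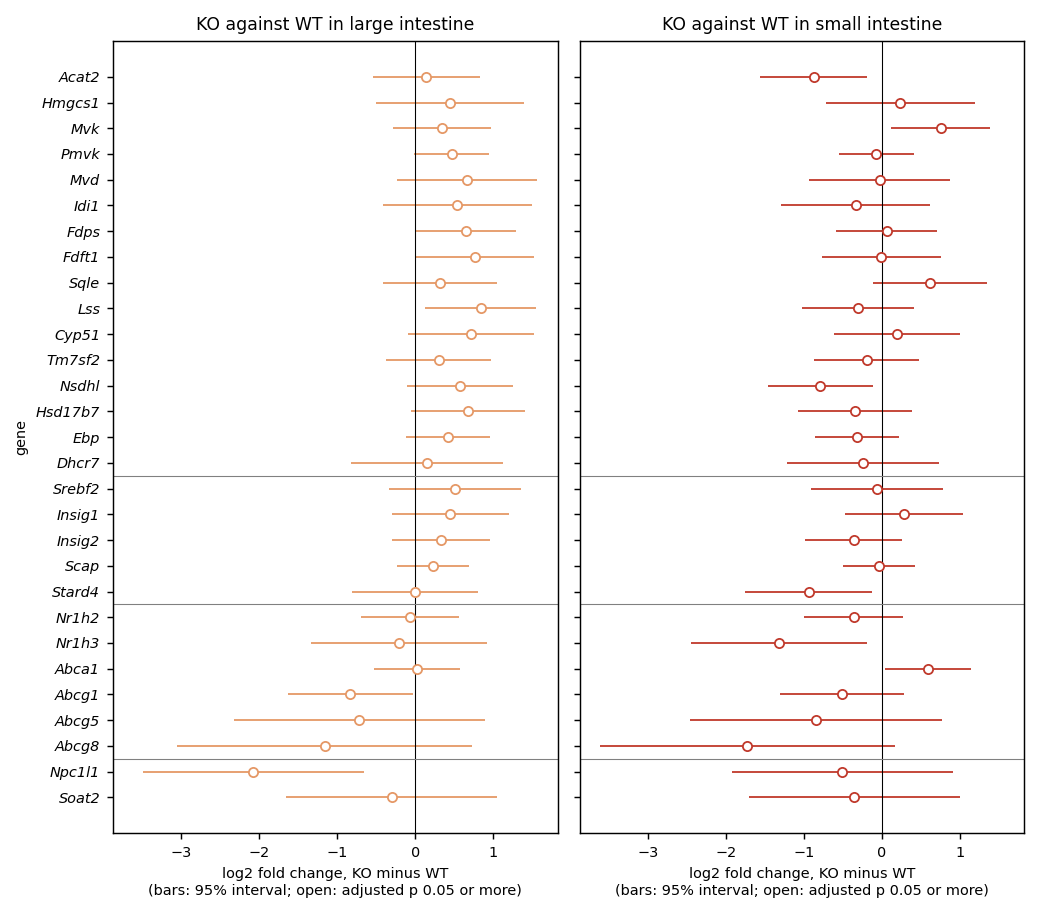
Log2 fold change of KO over WT in the large intestine (left) and the small intestine (right) for each of the 29 genes, with 95% intervals; no gene passed in either, and the Abcg8 point in the large intestine rests on signal mostly at background. In the large intestine all 16 synthesis enzymes lie right of 0, between 0.14 and 0.84, and in the small intestine they lie on both sides.

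Of the 5 sensing genes, 4 had both KO large arrays above both WT large arrays, a pattern that 27.6% of all genes showed. These were Srebf2 (0.50 ± 0.35), Insig1 (0.45 ± 0.32), Insig2 (0.33 ± 0.26) and Scap (0.23 ± 0.20), and none passed. Srebf2 read 0.28 and 0.51 in KO large intestine, against -0.05 and -0.16 in WT large intestine. Insig1 read -1.03 and -0.53 in KO large intestine, against -1.16 and -1.29 in WT large intestine, and its KO arrays differed from each other by more than the gap to the WT arrays. Stard4 gave -0.00 ± 0.34 on its brighter probe and 0.90 on its second probe, so that its probes disagree.

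Uptake and efflux genes lay on the other side of 0. Npc1l1 read -5.50 and -4.27 in KO large intestine, against -2.94 and -2.67 in WT large intestine. Both KO arrays were lower, by -2.08 ± 0.59 on the log2 scale (95% interval -3.49 to -0.66), the smallest p of the 29 genes, and it did not pass (limma adjusted p = 0.247). Abcg1 read -0.60 and -1.23 in KO large intestine, against 0.02 and -0.19 in WT large intestine (-0.83 ± 0.33, limma adjusted p = 0.361), without overlap. Soat2 (-0.30 ± 0.57) and Nr1h3 (-0.21 ± 0.47) had both KO arrays below both WT arrays, 4 genes in all, against 27.7% of all genes tested. Abcg5 gave -0.72 ± 0.68 with overlap, Nr1h2 -0.07 ± 0.26 and Abca1 0.02 ± 0.23. Abcg8 read -9.42 and -7.58 in KO large intestine, against -7.91 and -6.77 in WT large intestine, with 1 of the 4 arrays well above background, so that no fold is given.

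In the small intestine, again, 0 of 29 genes passed between KO and WT, here against 9.89% of all genes tested, with a lowest adjusted p of 0.0907 in limma. At an unadjusted p under 0.05 there were 6, against 31.4% of all genes. The enzymes showed no common direction: 5 were above 0 and 11 below, with a median of -0.14, against -0.10 over all genes. Both KO small arrays lay above both WT small arrays for Mvk and Sqle, and below them for Acat2, Nsdhl and Ebp. Over all genes, 26.6% lay above without overlap and 32.7% below.

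Acat2 had the smallest p. It read -1.65 and -2.15 in KO small intestine, against -1.35 and -0.70 in WT small intestine (-0.88 ± 0.29, limma adjusted p = 0.0907). The groups did not overlap. Mvk read 2.66 and 3.103 in KO small intestine, against 1.90 and 2.36 in WT small intestine (0.75 ± 0.27, limma adjusted p = 0.108). Both KO arrays were higher. Nsdhl, an X-linked dehydrogenase that helps strip methyl groups from the sterol ring, read -0.05 and -0.08 in KO small intestine, against 0.34 and 1.11 in WT small intestine (-0.79 ± 0.28, limma adjusted p = 0.112). Its KO arrays were almost equal, and the WT arrays spread by more than the gap between the groups. A second, dimmer Nsdhl probe gave -0.29.

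Nr1h3 read 2.22 and 0.66 in KO small intestine, against 2.94 and 2.58 in WT small intestine (-1.32 ± 0.47, limma adjusted p = 0.111). The KO arrays lay below both WT arrays but far apart, with KO small 3 the lower. Stard4 read 2.53 and 1.85 in KO small intestine, against 2.79 and 3.47 in WT small intestine (-0.94 ± 0.34, limma adjusted p = 0.115), without overlap. Abca1 read 0.28 and 0.13 in KO small intestine, against -0.25 and -0.52 in WT small intestine (0.59 ± 0.23, limma adjusted p = 0.137), the only efflux gene with both KO arrays higher. The sensing genes Srebf2 (-0.06 ± 0.35), Scap (-0.04 ± 0.20), Insig2 (-0.36 ± 0.26) and Insig1 (0.28 ± 0.32) overlapped between the groups. The 95% intervals reached from -0.91 to 0.78 for Srebf2 and from -0.47 to 1.03 for Insig1. For these genes the arrays therefore allow a change of any size within that range. Abcg8 (-1.73 ± 0.79), Abcg5 (-0.85 ± 0.68), Npc1l1 (-0.51 ± 0.59) and Soat2 (-0.35 ± 0.57) did not pass. For each of these 4, KO small 3 was the lowest of the 4 small intestine arrays, while KO small 2 read above both WT arrays for Npc1l1 and Soat2.

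The direction of the enzymes' median differed between arrays here. Within number 2 their median was 0.23, with 10 of 16 above 0, and within number 3 it was -0.53, with 14 of 16 below. Without WT small 3 the median was 0.28 with 13 of 16 above 0, and without WT small 2 it was -0.45 with 2 of 16 above 0. Without KO small 2, Nr1h3 (adjusted p = 0.0142) and Soat2 (adjusted p = 0.0288) passed as lower, and without WT small 2, Nsdhl did (adjusted p = 0.0467). In the 2 WT small arrays the members differed by a median of 0.47, against 0.29 for all genes, and in the 2 KO small arrays by 0.52, against 0.39.

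Markers of other cell types moved more than these genes in the small intestine. Of 12 neuron and glia markers 10 passed as higher in KO small intestine (median 2.02, 12 above 0), against 6.38% of all genes. Smooth muscle markers had a median of 1.35, with 11 of 12 above 0 and 1 below, and 1 passed as higher. Of 12 macrophage markers 6 passed as higher (10 above 0, 2 below). Of 10 T cell markers 6 passed as lower (10 below 0), against 3.51% of all genes. The summed smooth muscle level was 9.42 and 9.56 in KO small intestine, against 8.82 and 8.01 in WT small intestine. Epithelial markers had a median of -0.33, with 10 of 12 below 0 and 2 above, and 2 passed as lower. Enterocyte markers had a median of -0.88, with 10 of 12 below 0 and 2 above, and 1 passed as lower. Summed epithelial levels were 9.17 and 8.85 in KO small intestine, against 9.09 and 9.28 in WT small intestine. The part of all these markers in the values of the cholesterol genes was not tested.

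**Figure D5:**
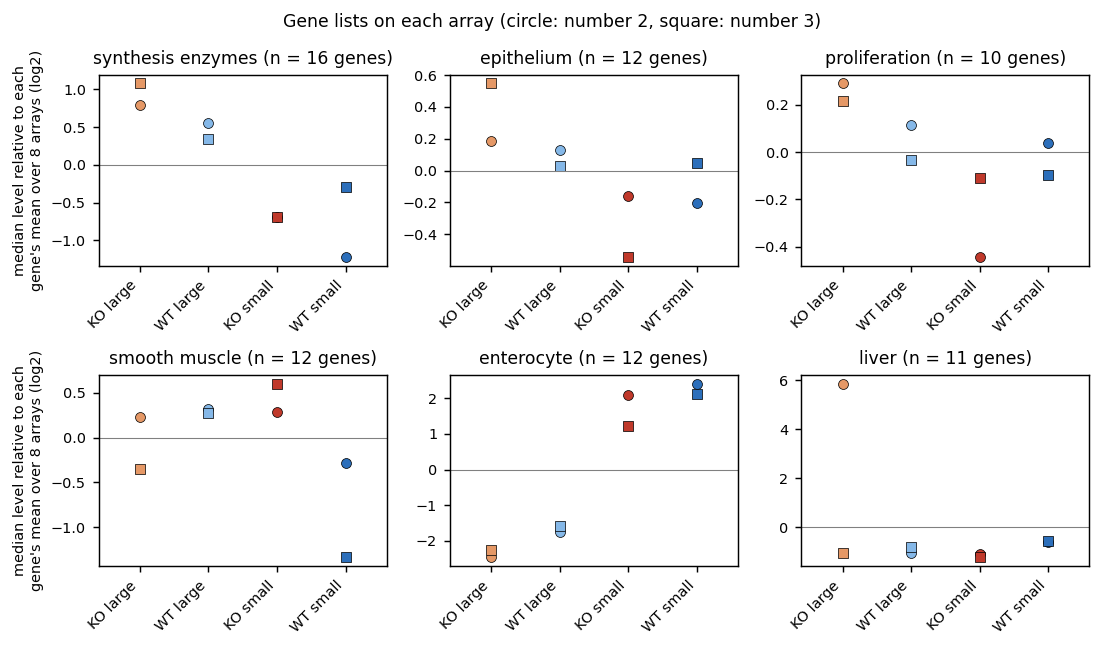
Median level of the 16 synthesis enzymes and of 5 marker lists on each array, in log2 above or below the 8-array mean of the gene, by group; circles are number 2, squares number 3, and each panel has its own axis. The enzymes and the epithelial markers are highest on the KO large arrays, the smooth muscle markers are lowest on WT small 3, and the liver markers stand out on KO large 2 alone.

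Over both segments together, with both factors in 1 model, none of the 29 genes passed between KO and WT (0.651% of all genes did). At an unadjusted p under 0.05 there were 4, against 15.2% of all genes. These were Abcg1 (-0.67 ± 0.24, limma adjusted p = 0.243), Mvk (0.55 ± 0.20, adjusted p = 0.256), Abcg8 (adjusted p = 0.271, with large intestine values at background) and Npc1l1 (-1.29 ± 0.49, adjusted p = 0.276). Sqle came next at 0.46 ± 0.22 (adjusted p = 0.379). Abcg1 was lower in KO than in WT on all arrays of both segments, reading -0.51 and -1.33 in KO small intestine, against -0.35 and -0.47 in WT small intestine. Sqle was higher in KO on all arrays of both segments. It read 3.98 and 4.34 in KO large intestine, against 3.92 and 3.78 in WT large intestine, and 2.75 and 3.06 in KO small intestine, against 1.89 and 2.70 in WT small intestine. Mvk did likewise, with 4.15 and 4.44 in KO large intestine, against 4.08 and 3.82 in WT large intestine.

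The knockout effect in large minus that in small intestine was tested as an interaction, and 0 of 29 genes passed (0.139% of all genes did). At an unadjusted p under 0.05 there were 3, against 25.8% of all genes: Nsdhl (1.36 ± 0.40, limma adjusted p = 0.112), Lss (1.14 ± 0.42, adjusted p = 0.159) and Acat2 (1.02 ± 0.41, adjusted p = 0.180). In 3 of the 29 genes the groups did not overlap in either segment and lay in opposite directions, against 18.2% of all genes. The enzymes' median of 0.50 in the large intestine and -0.14 in the small intestine are not shown to differ gene by gene at this number of arrays.

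Of 28 further cholesterol pathway genes, 4 passed as higher and 2 as lower in WT large than in WT small intestine. Their median was -0.16, with 13 above 0 and 15 below. Over all genes, 9.93% passed as higher and 9.92% as lower, with a median of 0.00. Acss2, which makes acetyl-CoA from acetate, read 2.71 and 2.39 in WT large intestine, against 0.73 and 1.02 in WT small intestine (1.68 ± 0.23, limma adjusted p = 0.00531). Cyp27a1, a hydroxylase of the sterol side chain, gave 1.42 ± 0.23 (adjusted p = 0.00899) and Mylip, the ubiquitin ligase that degrades lipoprotein receptors, 1.18 ± 0.20 (adjusted p = 0.0105). Lipa, the lysosomal lipase that frees cholesterol from its esters, read 0.13 and 0.24 in WT large intestine, against 3.68 and 2.84 in WT small intestine (-3.07 ± 0.52, limma adjusted p = 0.0109). The groups did not overlap for Acss2 or Lipa.

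Between KO and WT small intestine, 2 of the 28 passed as lower and 0 as higher in limma. Their median was -0.26, with 18 below 0 and 10 above. Over all genes, 3.51% passed as lower and 6.38% as higher, with a median of -0.10. At an unadjusted p under 0.05, 9 were lower and 1 was higher. Over all 20138 genes, 2884 were lower and 3445 higher at that threshold, 31.4% in all. Acat1, the mitochondrial acetoacetyl-CoA thiolase, read 3.62 and 2.89 in KO small intestine, against 4.99 and 4.31 in WT small intestine (-1.40 ± 0.33, limma adjusted p = 0.0477). Erlin1, a membrane protein of the endoplasmic reticulum that takes part in sterol-regulated protein degradation, read 2.75 and 1.99 in KO small intestine, against 3.53 and 4.00 in WT small intestine (-1.39 ± 0.32, limma adjusted p = 0.0444). Both genes were lower on both KO arrays. In the large intestine 0 of the 28 passed in limma, with a median of 0.10, against 0.308% and a median of -0.00 over all genes. At an unadjusted p under 0.05 there were 2, against 13.3% of all genes.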

How the data were processed

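Total RNA of 8 intestinal samples was measured on 1-colour Agilent arrays. Per the file headers, the deposited files hold spot intensity from Feature Extraction 10.7.3.1, with background subtracted and trends removed array by array but no scaling across arrays, with positions on mm9. The authors also deposited normalized values as linear intensity (column medians 158.06 to 160.06), used as an alternative, and its background step is unknown. Per the submitters' processing notes R 3.3.0 was used, and the sources used here name no further step.

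From these, log2 of the deposited intensity was set relative to the array's own 75th percentile (2642.51 to 3571.77 signal units). Outlier-flagged spots (148 to 312 per array) were dropped, and no spot was saturated. Spots of a probe were averaged, and a probe was kept if both arrays of any group read it well above background. Between 63.6% and 72.1% of spots were well above background. Probes were named through a RefSeq gene table (GRCm38.p6), and the probe with the highest mean stood for each gene. Of the 29 genes, 10 have 2 kept probes, whose signs matched in 9 (KO against WT, small intestine), 9 (large intestine) and 8 (WT large against small) of 10.

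Groups came from the sample titles. limma 3.58.1, run in R 4.3.3 with the data.table package (version 1.17.8), fitted 4 group means over all 8 arrays (4 residual degrees of freedom), or genotype and segment as additive terms (5), with Benjamini-Hochberg adjustment within each comparison. The alternatives were other background correction, normalization, filters, probe rules, priors, blocks, the deposited normalized values, the compared groups alone, and each array left out.

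The members and lists were chosen with earlier results of these data known. Members are named with every value if they passed in any comparison or had one of the 5 smallest p in a knockout comparison, and of other lists at most 4 genes are named. Abca1, Dhcr7 in the large intestine and the markers Cldn7 and Xist were named after their values were seen. Numbers 2 and 3 in the titles do not state a shared animal or litter.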

Additional observations from a re-analysis of the deposited data

Results flagged for a closer look

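Nsdhl, Acat2 and Ebp lay apart in opposite directions in the 2 segments, which makes 3 of the 29 genes, against 18.2% of all genes. For each, both KO large arrays were above both WT large arrays, and both KO small arrays were below both WT small arrays. Nsdhl read 1.53 and 1.77 in KO large intestine, against 1.19 and 0.97 in WT large intestine, and the knockout effect in large minus that in small intestine was 1.36 ± 0.40 on the log2 scale (limma adjusted p = 0.112). A second, dimmer Nsdhl probe gave 0.89 in the large intestine and -0.29 in the small intestine, where the brighter probe gave -0.79. Acat2 read -1.16 and -1.21 in KO large intestine, against -1.23 and -1.42 in WT large intestine, and its difference was 1.02 ± 0.41 (limma adjusted p = 0.180). Ebp read 5.03 and 5.06 in KO large intestine, against 4.66 and 4.59 in WT large intestine, and 3.99 and 3.45 in KO small intestine, against 4.04 and 4.03 in WT small intestine. Its difference was 0.74 ± 0.32 (limma adjusted p = 0.204). None of the 3 differences passed. Nsdhl and Ebp are X-linked, and the arrays KO small 3 and KO large 3 read -8.47 and -9.00 for the Y-linked gene Ddx3y, against 0.70 to 1.33 on the other 6 arrays; the part of sex was not tested.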

How the results depend on the processing

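Precision is limited by 2 arrays per group. Between KO and WT large intestine, and over both segments, 0 members passed in every alternative run. Between KO and WT small intestine 1 passed on the deposited values (Mvk, adjusted p = 0.0458) and 0 to 2 with 1 array left out. For the difference between segments 0 to 1 did, the 1 being Nr1h3 without KO small 2 (adjusted p = 0.0478). For WT large against WT small intestine 14 members passed, 8 without a background filter and 9 with the compared groups alone, which leaves fewer degrees of freedom, and 3 to 15 with 1 array left out. Other settings gave 13 to 18. Each named result kept its direction in the comparison that named it, over the alternatives run. Other members did not: between KO and WT small intestine Npc1l1 and Soat2 stood at -0.51 and -0.35, but at 0.31 and 0.61 without KO small 3, and the number of the 16 enzymes above 0 ran from 2 to 13. The number of all genes that passed moved too: 1991 (33 to 3826 over alternatives) for KO small intestine, 62 (0 to 122) for KO large intestine, 131 (1 to 778) over both segments, 28 (1 to 944) for the difference and 3997 (903 to 4984) for WT large against small. The causes of these shifts were not tested otherwise. With the number, also the slide row, as a replicate block, 0, 0, 0, 0 and 14 members passed in the same 5 comparisons. Deviations of same-numbered arrays correlated at 0.00697 to 0.261 across genes, with 4 of 6 pairs of groups above 0.1; this does not settle whether they share a pup or litter.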

Other observations

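Of 13 fatty acid synthesis genes, Scd1, the desaturase that makes oleate from stearate, was the only one to pass between KO and WT small intestine. Over all genes, 6.38% passed there as higher and 3.51% as lower. Scd1 read -2.53 and -1.61 in KO small intestine, against -3.64 and -3.89 in WT small intestine (1.69 ± 0.35, limma adjusted p = 0.0394). Between KO and WT large intestine 0 of 13 passed in limma, against 0.308% of all genes, with a median of 0.14. At an unadjusted p under 0.05 there was 1, against 13.3% of all genes. In WT large against WT small intestine 3 of the 13 passed as higher and 2 as lower, with a median of 0.31 (8 above 0, 5 below). Over all genes, 9.93% passed as higher and 9.92% as lower, with a median of 0.00. Scd2, a related desaturase, read 5.75 and 5.46 in WT large intestine, against 2.36 and 3.86 in WT small intestine, and both arrays of WT large intestine were higher.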
